A study of Mus musculus with 16 samples.

Results

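The effect of adipose lipocalin-2 (LCN2) was compared between gonadal and subcutaneous fat, gene by gene. A gene entered if its identifier stood in both expression tables with a mean gonadal value of at least 10 and a mean subcutaneous value of at least 3 on the rlog scale, a log2 scale on which weakly expressed genes are drawn towards their mean. Of 32187 genes in either table, 29084 were in both and 19109 passed. The effect was the mean of the LCN2 samples minus the mean of the GFP samples, taken on log2(value + 1) in gonadal fat and on rlog in subcutaneous fat. The quantity compared was the gonadal effect minus the subcutaneous effect, and expression levels were not compared between depots.

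All 16 samples came from female mice on a C57BL/6J background that were null for Lcn2 (B6.129P2-Lcn2tm1Aade/AkiJ), so the control groups lacked the endogenous gene as well. At 8 weeks of age they were given an AAV8 vector by vein that carried LCN2 or green fluorescent protein (GFP). Both transgenes had an adiponectin promoter, which is active in fat cells, and a microRNA-122 target sequence that lowers expression in liver. All mice ate an HF/HS diet and tissue was taken at 16 weeks. The 4 groups, gonadal GFP, gonadal LCN2, subcutaneous GFP and subcutaneous LCN2, held 4 samples each. The labels do not say whether samples with the same number came from the same mouse, nor that the 4 of a group were separate animals, so the p-values cover only sample-to-sample spread, which may be technical.

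Lipocalin-2 is a secreted protein that binds iron-loaded siderophores and is made by fat cells, macrophages and epithelia. Gonadal fat of the mouse is a visceral depot covered by mesothelium, a flat epithelium with keratins and tight junctions. Subcutaneous fat lies under the skin, holds a lymph node in its inguinal part and more readily forms beige fat cells, which burn fuel to make heat.

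Gonadal libraries held between 35173260 and 42890102 reads recovered from the deposited values, whereas subcutaneous depth is unknown. A few libraries stood apart through transcripts of other tissues. Skeletal muscle genes were highest in gonadal LCN2 replicate 4 and next highest in gonadal GFP replicate 2, together called the muscle libraries below. T cell and B cell genes were highest in subcutaneous GFP replicates 1 and 2, called the lymph node libraries below, and both are controls. In bulk tissue, fewer cells of a type and less RNA per cell cannot be told apart.

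Lcn2 (ENSMUSG00000026822, chromosome 2, 32384633 to 32388252, minus strand, GRCm38), the gene carried by the vector, was higher with LCN2 in both depots. Its normalized values in gonadal fat were 103, 62.1, 70.0 and 89.5 with GFP and 186, 189, 522 and 481 with LCN2. Rlog values of Lcn2 in subcutaneous fat were 7.76, 8.32, 8.23 and 8.37 with GFP and 8.74, 8.49, 9.45 and 9.82 with LCN2. In each depot every LCN2 sample lay above every GFP sample, and in both depots LCN2 replicates 3 and 4 lay above replicates 1 and 2. Reads were also counted for the gene in the GFP samples of these null mice, and which part of the gene they cover was not analysed here. The effect was 1.93 ± 0.37 (SE, n = 4 against 4) in gonadal and 0.95 ± 0.29 in subcutaneous fat, with an exact permutation p of 0.0286 in each depot, the smallest that 70 splits can give. The difference, 0.98 ± 0.51, did not pass the test (adjusted p = 0.812 by limma). A two-sided exact permutation test of the difference, with labels permuted within each depot over 4900 splits, gave p = 0.322. Its null is no effect in either depot, so it cannot decide whether the depots differ. With both depots on rlog the gonadal effect was 1.11 and the difference 0.15 ± 0.40 (adjusted p = 0.977).

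Most genes had effects of the same sign in both depots. The sign was the same for 12334 genes (64.5%), while 51.8% of gonadal and 51.1% of subcutaneous effects were above 0. Pearson's r between the effects was 0.27 and Spearman's rho 0.38 across the 19109 genes, which share libraries and are not independent replicates. The likeness was higher among strongly expressed genes. Over the 6218 genes with a mean gonadal value of at least 1000, r was 0.62, and over the 5240 genes between 10 and 100 it was 0.14. Within a vector, deviations of same-numbered samples from their group means correlated across depots at 0.03 to 0.62 (median 0.24). The median for unlike numbers was −0.11. How much of the likeness of effects came from samples that vary together was not tested.

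Gonadal effects were spread more widely, with an SD over genes of 0.40 against 0.23 in subcutaneous fat. With the gonadal reads on the rlog scale too, that SD was 0.20. Because the width moved with the scale, the difference with both depots on rlog is also given for the genes described by their samples. How far rlog draws a gene towards its mean depends on its level in each depot, so both depots need not be drawn equally.

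**Figure D1:**
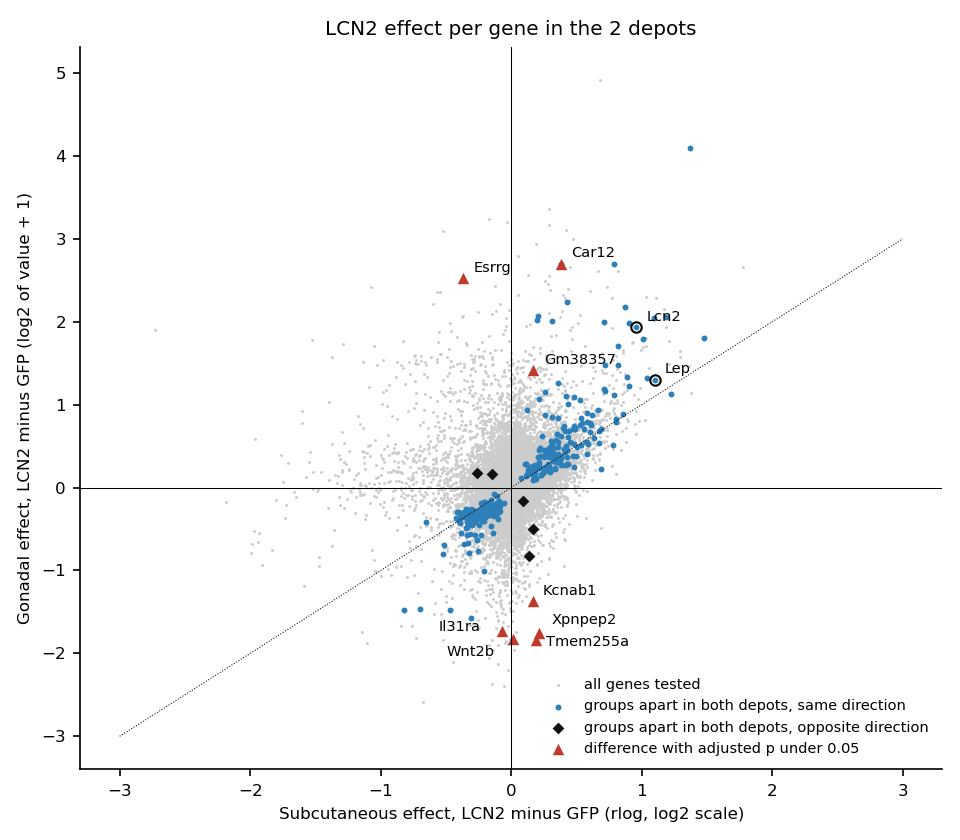
Each point is 1 of 19109 genes, with its subcutaneous effect (rlog) on the x axis and its gonadal effect (log2 of value + 1) on the y axis. Blue points are the 346 genes whose groups did not overlap in either depot and moved the same way, black diamonds the 5 that moved in opposite ways, and red triangles the 8 genes whose effects differed.

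The effect of LCN2 differed between depots for 8 of 19109 genes (0.0419%) at an adjusted p under 0.05 by limma. The gonadal effect was above the subcutaneous one for 3 (0.0157%), Car12, Esrrg and Gm38357. It was below for 5 (0.0262%), Tmem255a, Il31ra, Xpnpep2, Wnt2b and Kcnab1. At an unadjusted p under 0.05 there were 1218 genes (6.37%), 633 above (3.31%) and 585 below (3.06%). In all 8 genes the gonadal LCN2 and GFP samples did not overlap, and in all but Car12 the subcutaneous samples did. With both depots on rlog, 2 genes passed (0.0105%), Tmem255a and Esrrg. Without the lymph node libraries Tmem255a alone passed, and without the muscle libraries as well none did. The test took the 16 samples as independent. With vector and replicate number as a block across depots, 1 gene passed by limma, Xpnpep2 (adjusted p = 0.0231), and Tmem255a did not (adjusted p = 0.051).

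Within single depots, LCN2 against GFP passed for 20 of 19536 gonadal genes (0.102%) and for 0 of 20302 subcutaneous genes (0%) by limma. In subcutaneous fat 2851 genes (14%) had an unadjusted p under 0.05. The gonadal count ran from 1 to 66 with 1 sample left out, and on the recovered reads it was 818 by DESeq2 and 7 by edgeR. A difference between these counts is no test of a difference between depots.

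Tmem255a (ENSMUSG00000036502, chromosome X, 38196573 to 38252439, minus strand) encodes a transmembrane protein and had the smallest p of all genes. Gonadal values of Tmem255a were 301, 339, 277 and 285 with GFP and 93.3, 87.7, 74.8 and 77.2 with LCN2. Rlog values of Tmem255a in subcutaneous fat were 5.03, 4.93, 5.05 and 5.36 with GFP and 5.06, 5.37, 5.50 and 5.19 with LCN2. The gonadal groups lay far apart, with every LCN2 sample low, and the subcutaneous groups overlapped. Effects were −1.84 ± 0.12 (SE) in gonadal and 0.19 ± 0.12 in subcutaneous fat, a difference of −2.03 ± 0.18 (adjusted p = 0.000262). With both depots on rlog it was −1.22 ± 0.14 (adjusted p = 0.00939).

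Esrrg (ENSMUSG00000026610, chromosome 1, 187608791 to 188214885, plus strand) encodes estrogen-related receptor gamma, a nuclear receptor that drives genes of oxidative metabolism. Gonadal values of Esrrg were 5.28, 18.3, 21.2 and 11.6 with GFP and 64.0, 75.6, 90.7 and 81.2 with LCN2. Rlog values of Esrrg in subcutaneous fat were 7.28, 7.07, 6.88 and 7.20 with GFP and 6.67, 6.74, 6.56 and 6.99 with LCN2. All gonadal LCN2 samples lay above the GFP samples, whereas 3 of 4 subcutaneous LCN2 samples lay below every GFP sample. Effects were 2.53 ± 0.38 and −0.37 ± 0.12, a difference of 2.90 ± 0.41 (adjusted p = 0.0211), and 1.23 ± 0.15 with both depots on rlog (adjusted p = 0.00939).

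Car12 (ENSMUSG00000032373, chromosome 9, 66713686 to 66766845, plus strand), a carbonic anhydrase of the cell surface, was higher with LCN2 in both depots. Gonadal values of Car12 were 26.4, 17.3, 13.8 and 13.3 with GFP and 112, 108, 99.8 and 151 with LCN2. Rlog values of Car12 in subcutaneous fat were 5.92, 6.16, 5.68 and 5.96 with GFP and 6.36, 6.17, 6.50 and 6.20 with LCN2. Neither depot's groups overlapped, although the subcutaneous gap was narrow. Effects were 2.70 ± 0.25 and 0.38 ± 0.12, a difference of 2.32 ± 0.28 (adjusted p = 0.00518). The direction was shared and the size of the gap depended on the scale: with both depots on rlog it was 0.72 ± 0.16 (adjusted p = 0.692).

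Il31ra (ENSMUSG00000050377, chromosome 13, 112519898 to 112594360, minus strand) encodes a receptor subunit for interleukin-31. Gonadal values of Il31ra were 114, 129, 88.0 and 128 with GFP and 35.6, 39.3, 31.7 and 28.1 with LCN2. Rlog values of Il31ra in subcutaneous fat were 4.01, 4.18, 4.21 and 4.03 with GFP and 4.19, 3.98, 4.08 and 3.87 with LCN2, low on that scale and overlapping. Effects were −1.74 ± 0.18 and −0.07 ± 0.08, and the difference of −1.66 ± 0.21 (adjusted p = 0.00569) was −0.70 ± 0.12 with both depots on rlog (adjusted p = 0.0928).

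Xpnpep2 (ENSMUSG00000037005, chromosome X, 48108725 to 48136981, plus strand) encodes a membrane-bound aminopeptidase. Gonadal values of Xpnpep2 were 428, 441, 411 and 494 with GFP and 174, 119, 156 and 90.3 with LCN2. Rlog values of Xpnpep2 in subcutaneous fat were 5.64, 6.15, 6.03 and 6.08 with GFP and 6.55, 5.80, 6.42 and 6.00 with LCN2. All gonadal LCN2 samples were low, and the subcutaneous groups overlapped. Effects were −1.75 ± 0.20 and 0.22 ± 0.18, a difference of −1.97 ± 0.29 (adjusted p = 0.0211), and −1.25 ± 0.22 with both depots on rlog (adjusted p = 0.179).

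Wnt2b (ENSMUSG00000027840, chromosome 3, 104945272 to 104961921, minus strand) encodes a secreted Wnt ligand. Gonadal values of Wnt2b were 1109, 1231, 834 and 1399 with GFP and 245, 517, 272 and 287 with LCN2. Rlog values of Wnt2b in subcutaneous fat were 5.73, 5.71, 5.72 and 5.89 with GFP and 5.77, 5.76, 5.76 and 5.80 with LCN2. The gonadal groups lay apart, while the subcutaneous values hardly varied. Effects were −1.83 ± 0.25 and 0.01 ± 0.06, a difference of −1.84 ± 0.28 (adjusted p = 0.0226), and −1.18 ± 0.18 with both depots on rlog (adjusted p = 0.061).

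Kcnab1 (ENSMUSG00000027827, chromosome 3, 65109384 to 65378223, plus strand) encodes a beta subunit of voltage-gated potassium channels. Gonadal values of Kcnab1 were 228, 189, 183 and 313 with GFP and 82.7, 112, 71.4 and 82.2 with LCN2. In subcutaneous fat its rlog values ran from 4.92 to 5.07 with GFP and from 4.99 to 5.32 with LCN2. LCN2 samples were low in gonadal fat and overlapped GFP in subcutaneous fat. Effects were −1.37 ± 0.21 and 0.16 ± 0.08, a difference of −1.53 ± 0.24 (adjusted p = 0.0261), and −0.92 ± 0.15 with both depots on rlog (adjusted p = 0.0875).

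Gm38357 (ENSMUSG00000103313, chromosome 3, 51231917 to 51234380, plus strand) is a transcript model that the annotation marks as still to be tested by experiment. Gonadal values of Gm38357 were 62.2, 73.3, 83.8 and 63.0 with GFP and 179.5, 192, 219 and 168 with LCN2. Rlog values of Gm38357 in subcutaneous fat were 6.11, 6.18, 6.03 and 6.54 with GFP and 6.27, 6.39, 6.45 and 6.42 with LCN2. The gonadal groups lay apart and the subcutaneous groups overlapped. Effects were 1.42 ± 0.15 and 0.17 ± 0.11, a difference of 1.25 ± 0.18 (adjusted p = 0.0211), and 0.58 ± 0.14 with both depots on rlog (adjusted p = 0.895).

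In 16 runs that each left out 1 sample, Tmem255a, Car12 and Il31ra passed in 16, Xpnpep2 in 12, Esrrg in 10, Gm38357 in 9, and Wnt2b and Kcnab1 in 6 each. Wnt2b and Kcnab1 were the genes just inside the threshold. Just outside it were Adh6b, an alcohol dehydrogenase, with a difference of 1.30 ± 0.21 (adjusted p = 0.0506), and Tesc, Egfl6 and Cldn1, with differences of 1.67 ± 0.29, −1.82 ± 0.31 and −2.03 ± 0.35 (adjusted p = 0.0606 for each).

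**Figure D2:**
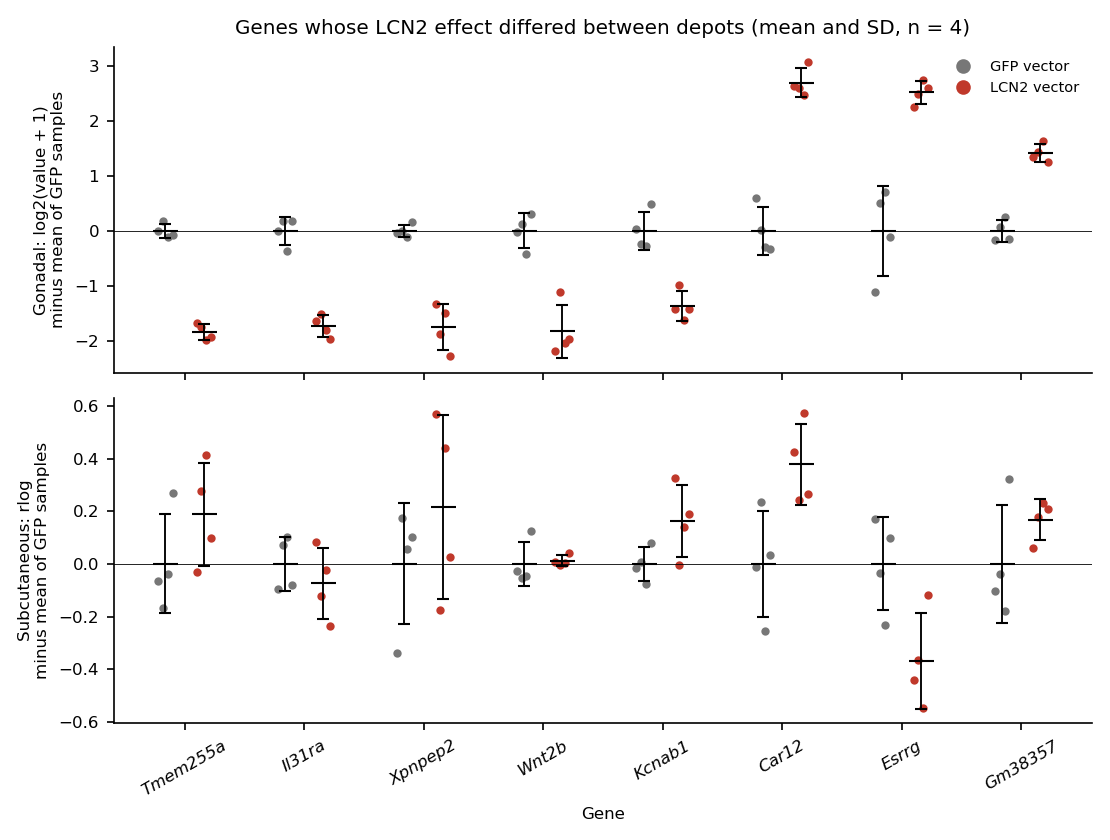
Values of the 8 genes in every sample, as log2(value + 1) in gonadal fat and rlog in subcutaneous fat, each minus the mean of that depot's GFP samples. Grey points are GFP, red points LCN2, and bars show mean and SD (n = 4). Gonadal samples separate by vector in all 8 genes, and subcutaneous samples only in Car12.

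Iron genes bear on the siderophore binding of lipocalin-2. Of 28 tested, 14 had a gonadal and 17 a subcutaneous effect above 0, and none passed for the difference. The nearest was Tfr2, which senses iron-loaded transferrin, with gonadal values of 127, 97.7, 125 and 78.7 with GFP and 487, 715, 647 and 319.9 with LCN2. Rlog values of Tfr2 in subcutaneous fat were 6.14, 6.51, 5.82 and 6.29 with GFP and 6.51, 6.74, 6.83 and 6.34 with LCN2. The gonadal groups lay apart and the subcutaneous groups overlapped. Effects were 2.29 ± 0.26 and 0.42 ± 0.16, a difference of 1.88 ± 0.33 (adjusted p = 0.0638). Without the muscle libraries it was 2.07 and passed (adjusted p = 0.0318), and with both depots on rlog it was 0.96 ± 0.25 (adjusted p = 0.938).

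Heph, a ferroxidase that helps iron leave cells, had effects of the same sign in both depots. Gonadal values of Heph were 4481, 4786, 5094 and 3375 with GFP and 5541, 6533, 6002 and 7120.1 with LCN2. Rlog values of Heph in subcutaneous fat were 11.42, 11.33, 11.72 and 11.58 with GFP and 11.89, 12.09, 12.19 and 12.00 with LCN2. No sample crossed over in either depot. Effects were 0.52 ± 0.14 and 0.54 ± 0.10, and the difference was −0.02 ± 0.18, or −0.19 ± 0.14 with both depots on rlog. The mean of both effects passed limma with the 16 samples taken as independent (adjusted p = 0.00945). It did not pass when depots were first averaged for each vector and replicate number (adjusted p = 0.109 by limma). Cp (ceruloplasmin), another ferroxidase, had effects of −0.81 ± 0.26 and −0.10 ± 0.12 and Steap2, a metalloreductase, of −0.89 ± 0.24 and −0.19 ± 0.18, and neither passed for the difference.

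Mesothelial genes were lower with LCN2 in gonadal fat and near 0 in subcutaneous fat, without passing for the difference. Of 15 markers, all passed the gonadal limit and 12 the subcutaneous one, so 12 were tested. Of these, 11 had a gonadal and 8 a subcutaneous effect below 0, with medians of −1.04 and −0.04. The median difference was −0.98 (−0.53 with both depots on rlog), against −0.01 over all genes. An unadjusted p under 0.05 was reached by 6, all with the gonadal effect below, against 3.06% of all genes. The level of the list in a sample, the median over its genes of the log2 value minus the gene's mean in that depot, ran from 0.08 to 1.18 in gonadal GFP samples and from −0.99 to 0.33 in gonadal LCN2 samples, with LCN2 replicate 2 inside the GFP range. How much mesothelium each sample held was not tested. Rlog draws weakly expressed genes towards their mean, perhaps more in subcutaneous than in gonadal fat for these markers. Its part in their subcutaneous effects was also not tested.

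Bnc1, a transcription factor of keratinocytes and mesothelium, shows the pattern. Gonadal values of Bnc1 were 379.8, 301, 280.0 and 475 with GFP and 110.2, 168, 89.6 and 88.3 with LCN2. Rlog values of Bnc1 in subcutaneous fat were 4.12, 4.08, 3.92 and 4.58 with GFP and 4.68, 3.98, 3.96 and 4.00 with LCN2. The gonadal groups did not overlap and the subcutaneous groups did, near the lower limit for entry. Effects were −1.66 ± 0.24 and −0.02 ± 0.19, a difference of −1.64 ± 0.34 (adjusted p = 0.174), and −0.94 ± 0.26 with both depots on rlog. Upk1b, a uroplakin, had effects of −1.37 ± 0.29 and −0.09 ± 0.06, and Lrrn4 of −1.03 ± 0.23 and −0.17 ± 0.17.

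Some junction genes of epithelia also had lower gonadal than subcutaneous effects. Cldn1, a tight junction claudin, had effects of −2.13 ± 0.31 and −0.10 ± 0.11. Cgn (cingulin), which links tight junctions to the cytoskeleton, had −1.84 ± 0.22 and −0.15 ± 0.19 (adjusted p of the difference = 0.0635), and Ppl (periplakin), a desmosome linker, −1.41 ± 0.19 and −0.08 ± 0.20. Pkp1, a desmosome plaque protein, lay on the other side with 3.11 ± 0.62 and 0.42 ± 0.34. Of 22 junction genes, 5 had an unadjusted p under 0.05 with the gonadal effect below (all genes 3.06%) and 1 with it above (all genes 3.31%). The medians of the junction effects were −0.09 and −0.08. Of 17 markers of mammary epithelium, 5 were tested, and all 5 had gonadal effects below 0, with medians of −0.65 and −0.02. Among the 5 were the keratin genes Krt8 and Krt18, which are on the mesothelial list too, so these lists are not separate. The level of the mammary list ran from −0.04 to 1.18 in gonadal GFP and from −1.22 to 0.06 in gonadal LCN2 samples. Its part in the junction and mesothelial values was not tested.

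Cell division genes were higher with LCN2 in gonadal fat and had no common direction in subcutaneous fat. The gonadal effect was above 0 for 33 of 34 (median 0.73) and the subcutaneous effect for 18 (median 0.01). The median difference was 0.75 (0.34 with both depots on rlog). None passed, and 18 had an unadjusted p under 0.05, all with the gonadal effect above, against 3.31% of all genes. Without the lymph node libraries the subcutaneous median was 0.15, with 26 above 0, and 8 genes had such a p. The level of the list ran from −0.56 to −0.14 in gonadal GFP and from 0.02 to 0.95 in gonadal LCN2 samples. In subcutaneous fat the ranges, −0.15 to 0.23 and −0.33 to 0.37, overlapped.

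Cdk1, the kinase that starts mitosis, had gonadal values of 55.9, 51.9, 58.3 and 102 with GFP and 173, 209, 145 and 129 with LCN2. Rlog values of Cdk1 in subcutaneous fat were 7.09, 6.93, 6.72 and 7.27 with GFP and 7.15, 7.63, 7.02 and 6.79 with LCN2. The gonadal groups lay apart and the subcutaneous groups overlapped. Effects were 1.31 ± 0.24 and 0.14 ± 0.19, a difference of 1.17 ± 0.32 (adjusted p = 0.439), and 0.52 ± 0.24 with both depots on rlog. The kinase gene Bub1 of the spindle checkpoint had effects of 1.85 ± 0.53 and −0.07 ± 0.17, Birc5 (survivin) of 1.26 ± 0.34 and 0.02 ± 0.18, and Rrm2, a subunit of ribonucleotide reductase, of 0.89 ± 0.25 and −0.21 ± 0.16.

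Hells, a chromatin remodeller of dividing cells, had gonadal values of 60.1, 64.1, 66.8 and 103 with GFP and 112, 131, 137 and 94.3 with LCN2. Rlog values of Hells in subcutaneous fat were 7.55, 7.21, 7.14 and 7.04 with GFP and 6.65, 7.13, 6.95 and 6.79 with LCN2. Both lymph node libraries lay above all other subcutaneous samples. In gonadal fat GFP replicate 4 lay above LCN2 replicate 4, and the other samples were separate. Effects were 0.70 ± 0.21 and −0.36 ± 0.14, a difference of 1.06 ± 0.25 (adjusted p = 0.305), and 0.70 ± 0.18 with both depots on rlog.

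Thermogenic genes had medians of opposite sign in the depots, with a wide spread between samples. Of 21 tested, 15 had a gonadal effect above 0 (median 0.90) and 2 a subcutaneous effect above 0 (median −0.36). None passed for the difference, and 5 had an unadjusted p under 0.05, all with the gonadal effect above, against 3.31% of all genes. Some of these genes are also expressed in muscle. Without the muscle libraries the median difference was 1.25, against 0.74 with them.

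Ucp1, the uncoupling protein of heat-producing fat cells, had gonadal values of 8.44, 1081, 938 and 4.97 with GFP and 7819, 3.03, 2924 and 120.4 with LCN2. Rlog values of Ucp1 in subcutaneous fat were 12.18, 8.21, 7.38 and 10.98 with GFP and 8.71, 5.88, 6.12 and 7.12 with LCN2. Values spread widely within every group and the groups overlapped in both depots. Effects were 1.90 ± 2.63 and −2.73 ± 1.11, a difference of 4.63 ± 3.13 (adjusted p = 0.854), and 3.87 ± 1.84 with both depots on rlog.

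Cpt1b, which lets fatty acids into mitochondria, had gonadal values of 6.33, 11.2, 19.1 and 6.63 with GFP and 64.9, 23.2, 35.1 and 18.1 with LCN2. Rlog values of Cpt1b in subcutaneous fat were 5.07, 4.35, 4.19 and 4.55 with GFP and 4.38, 4.10, 4.33 and 4.24 with LCN2. In gonadal fat only GFP replicate 3 and LCN2 replicate 4 crossed over. Effects were 1.58 ± 0.47 and −0.28 ± 0.17, a difference of 1.86 ± 0.52 (adjusted p = 0.456), and 0.69 ± 0.24 with both depots on rlog. Gk, glycerol kinase, had effects of 1.04 ± 0.34 and −0.36 ± 0.25, and Cox8b, a cytochrome c oxidase subunit, of 1.14 ± 0.69 and −0.73 ± 0.25.

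Other fuel-burning genes leaned the same way by less. Of 28 fatty acid oxidation genes, 23 had a gonadal and 10 a subcutaneous effect above 0, with medians of 0.13 and −0.09. Of 22 genes of the tricarboxylic acid cycle, 12 and 1 were above 0, with medians of 0.01 and −0.13. Of 76 nuclear genes of electron transport, 35 and 5 were above 0, with medians of −0.02 and −0.10. None of these genes passed for the difference. Without the muscle libraries 19 gonadal effects of the cycle and 58 of electron transport were above 0, with medians of 0.12 and 0.07. Without the lymph node libraries 4 and 16 subcutaneous effects were above 0. The median difference was then 0.03 for the cycle and 0.01 for electron transport, against 0.16 and 0.07 with them.

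**Figure D3:**
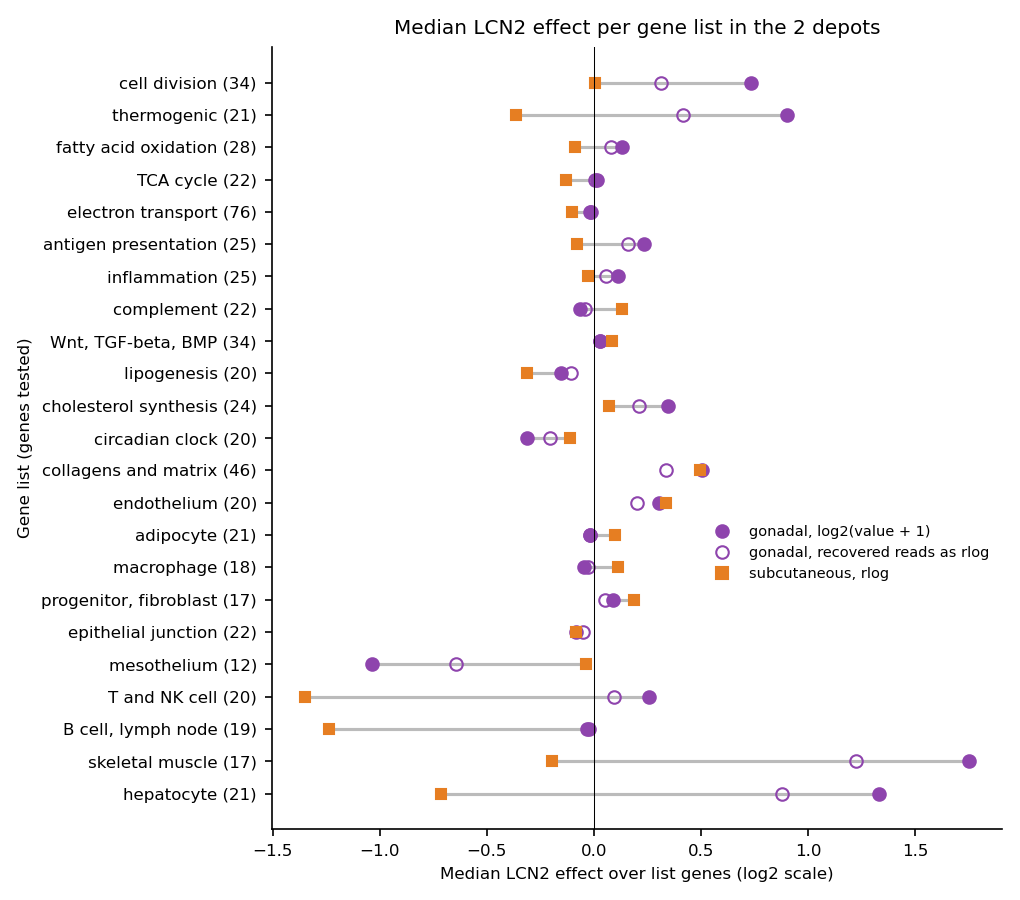
Median effect over the tested genes of each list (number in brackets), in gonadal fat on log2(value + 1), in gonadal fat on rlog and in subcutaneous fat on rlog. Cell division, thermogenic and mesothelial lists lie apart between depots. Collagens and endothelium are close for log2 against rlog, and the gonadal medians are lower with both depots on rlog, 0.34 against 0.50 and 0.20 against 0.34.

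Immune lists differed in part with the lymph node libraries. The T and NK cell list had median effects of 0.26 in gonadal and −1.35 in subcutaneous fat. Its level was 2.32 and 2.03 in subcutaneous GFP replicates 1 and 2, against −0.79 and −0.58 in replicates 3 and 4. Without those libraries the subcutaneous median was 0.02. For B cell and lymph node genes it was −1.24 with and 0.64 without them. The level of this B cell list also varied among the subcutaneous LCN2 samples, from −1.46 to 1.17. All of those samples were kept, so values without the lymph node libraries are not free of lymph node transcripts. For 25 antigen presentation genes, 22 gonadal and 8 subcutaneous effects were above 0, and 24 subcutaneous ones without those libraries.

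Muscle and liver lists varied with single samples. The skeletal muscle list had medians of 1.75 and −0.20, and a level of 5.88 in gonadal LCN2 replicate 4. Without the muscle libraries the gonadal median was 0.64. Hepatocyte genes had medians of 1.33 and −0.71, with levels from −2.13 to 1.64 in gonadal GFP and from −1.90 to 2.89 in gonadal LCN2 samples. Without the lymph node libraries the subcutaneous hepatocyte median was 0.44, with 18 of 21 above 0 against 2 with them, and the median difference was 0.84 against 2.13. No gene of the 4 cell type lists in these paragraphs passed for the difference.

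**Figure D4:**
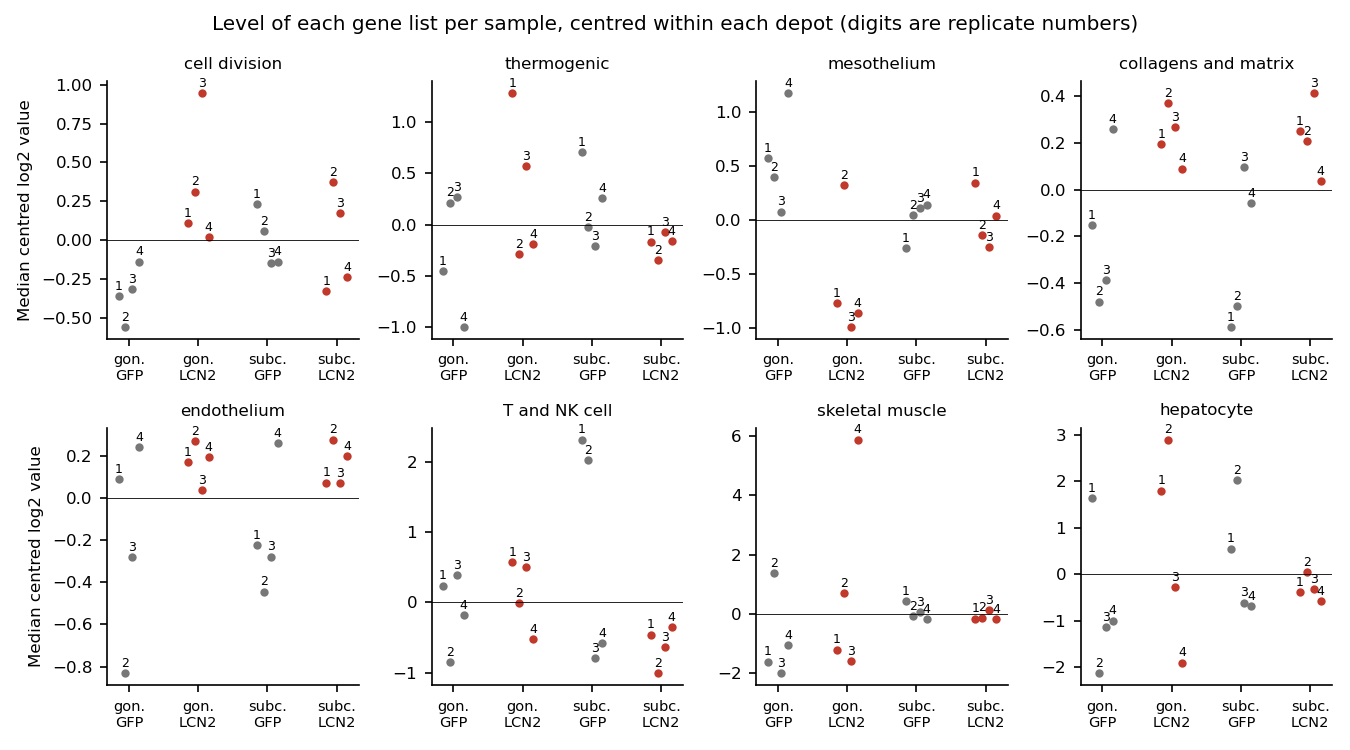
Level of 8 gene lists in each sample: the median over the list's genes of the log2 value minus the gene's mean in that depot, so 0 is the depot mean. Digits are replicate numbers, grey is GFP and red is LCN2. Gonadal samples separate by vector for cell division, whereas T cell and muscle levels follow single libraries.

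Complement genes leaned the other way from the division genes. Gonadal effects were above 0 for 10 and subcutaneous effects for 19 of 22. Without the muscle libraries the gonadal median was 0.09, with 12 above 0, against −0.06 with them. The median difference was then −0.11, against −0.25. C2, a protease of the classical pathway, had effects of −0.92 ± 0.21 and 0.06 ± 0.16, and C1s1, a protease of the C1 complex, of −0.26 ± 0.15 and 0.32 ± 0.09. None of the list passed for the difference. C6, of the membrane attack complex, had effects of 1.14 ± 0.32 and 1.38 ± 0.31, and their mean passed (adjusted p = 0.0122). The mean passed for 2 of the 22 complement genes, near the 8.61% of all genes. It passed for 0 of the 22 without the lymph node libraries, and for 0 when depots were averaged per replicate number.

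Shared responses were described by groups that did not overlap in either depot and by the mean of both effects. LCN2 and GFP samples lay apart in gonadal fat for 1725 genes (9.03%) and in subcutaneous fat for 1393 (7.29%). They lay apart in both and in the same direction for 346 genes (1.81%), 161 higher (0.843%) and 185 lower (0.968%). The mean effect passed limma for 1645 genes (8.61%), 819 higher (4.29%) and 826 lower (4.32%). That test took the 16 samples as independent. When depots were first averaged for each vector and replicate number, 1 gene passed (0.00523%), Car12. Without the lymph node libraries 26 passed, and without the muscle libraries 748.

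Lep (leptin), the satiety hormone of fat cells, was among the shared genes. Gonadal values of Lep were 32890.3, 21628, 24055 and 34236 with GFP and 49373, 74936, 65884 and 88609 with LCN2. Rlog values of Lep in subcutaneous fat were 14.20, 14.17, 14.71 and 14.66 with GFP and 15.14, 15.75, 15.88 and 15.36 with LCN2. No sample crossed over in either depot. Effects were 1.30 ± 0.23 and 1.10 ± 0.20, the difference was 0.20 ± 0.31 (−0.22 ± 0.26 with both depots on rlog), and the mean passed (adjusted p = 0.00352). Without the lymph node libraries the subcutaneous effect was 0.85 and the mean still passed (adjusted p = 0.0326). With depots averaged per replicate number the mean of Lep did not pass (adjusted p = 0.108 by limma).

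Lzts1, a gene that restrains growth, had gonadal values of 161, 166, 159 and 225 with GFP and 504, 323, 425 and 372 with LCN2. Rlog values of Lzts1 in subcutaneous fat were 7.44, 7.48, 7.59 and 7.88 with GFP and 8.43, 8.13, 8.59 and 8.09 with LCN2. All LCN2 samples were high in both depots, and effects were 1.18 ± 0.17 and 0.71 ± 0.14, a difference of 0.47 ± 0.23 (0.00 ± 0.18 with both depots on rlog). Others of this kind were Mdfic, an inhibitor of MyoD family factors (0.89 ± 0.15 and 0.58 ± 0.11), Sesn2, a stress-induced regulator of mTORC1 (1.17 ± 0.21 and 0.72 ± 0.15), and Zmiz1, a transcriptional coactivator (0.71 ± 0.13 and 0.49 ± 0.10).

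Among genes lower in both depots with no overlap, Stk26, a kinase, had effects of −1.46 ± 0.17 and −0.70 ± 0.24. Dennd2d, a Rab exchange factor, had −1.47 ± 0.24 and −0.83 ± 0.25, Rexo5, an RNA exonuclease, −0.58 ± 0.13 and −0.34 ± 0.06, and Cept1, which makes phosphatidylcholine, −0.31 ± 0.09 and −0.26 ± 0.05. The ribosomal protein gene Rpl38 had gonadal values of 2419, 2858, 2632 and 2794 with GFP and 2243, 2118, 2183 and 2276 with LCN2. Rlog values of Rpl38 in subcutaneous fat were 11.94, 11.81, 11.71 and 11.55 with GFP and 11.50, 11.44, 11.44 and 11.45 with LCN2. Effects were −0.28 ± 0.08 and −0.29 ± 0.08, a difference of 0.02 ± 0.11 (0.11 ± 0.09 with both depots on rlog).

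The groups lay apart in opposite directions for 5 genes (0.0262%). Gonadal samples were higher and subcutaneous ones lower with LCN2 for 2 (0.0105%), Znrf1 and Rcc2, and the reverse held for 3 (0.0157%), Rit1, Tmem35a and Gm43267. Znrf1, a ubiquitin ligase, had gonadal values of 1038, 943, 1023 and 1129 with GFP and 1173, 1164, 1163 and 1157 with LCN2. Rlog values of Znrf1 in subcutaneous fat were 10.82, 10.72, 10.49 and 10.49 with GFP and 10.39, 10.43, 10.26 and 10.40 with LCN2. The lymph node libraries held the highest of these rlog values. Effects were 0.18 ± 0.07 and −0.26 ± 0.09, a difference of 0.44 ± 0.11 (adjusted p = 0.356), and 0.38 ± 0.10 with both depots on rlog. Rcc2, a regulator of chromosome condensation, had effects of 0.16 ± 0.08 and −0.15 ± 0.05, Rit1, a Ras-like GTPase, of −0.17 ± 0.07 and 0.09 ± 0.05, and Tmem35a of −0.83 ± 0.34 and 0.14 ± 0.06. None of the 5 passed for the difference.

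**Figure D5:**
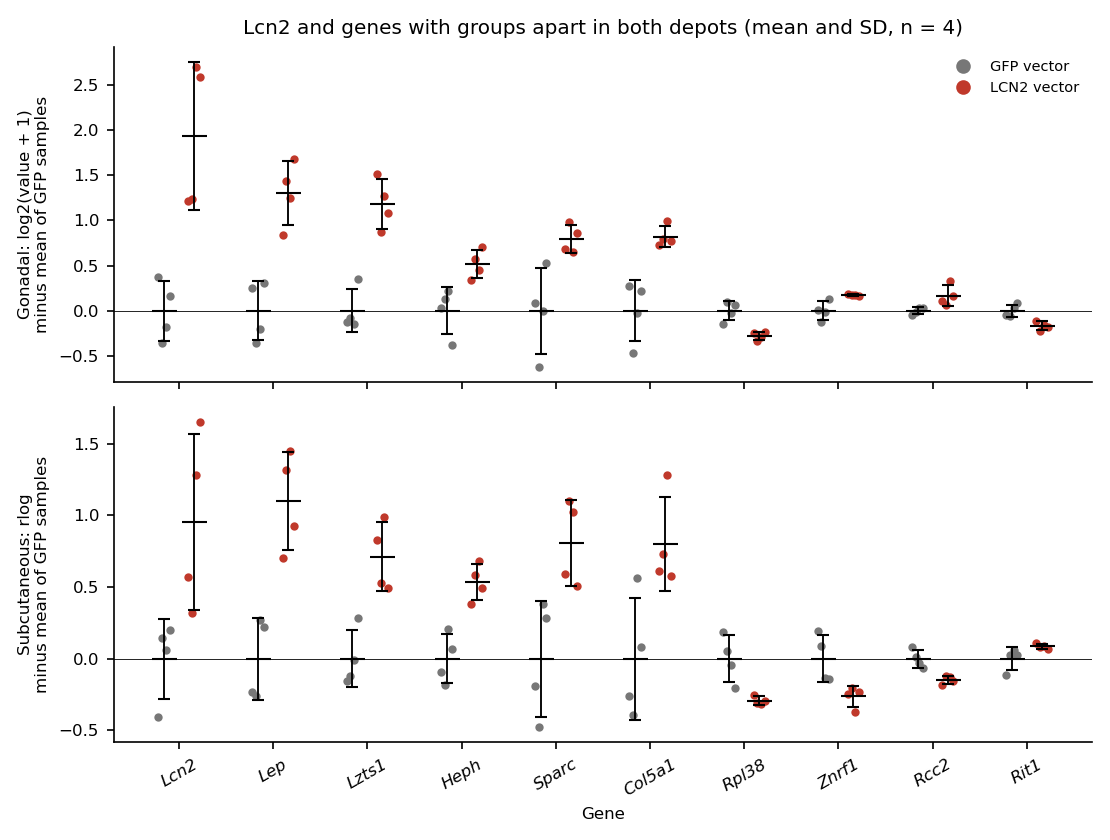
Values per sample of Lcn2, of 6 genes with groups apart in the same direction in both depots and of 3 with groups apart in opposite directions (Znrf1, Rcc2, Rit1), minus the mean of that depot's GFP samples. Grey points are GFP, red points LCN2, and bars show mean and SD (n = 4). Lep lies about 1 unit above the GFP mean in both depots.

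Most extracellular matrix genes had effects above 0 in both depots. Of 46 tested, 34 had a gonadal and 44 a subcutaneous effect above 0, with medians of 0.50 and 0.50, against 0.01 and 0.00 over all genes. With gonadal reads on rlog the gonadal median was 0.34, and 30 genes had the gonadal effect below the subcutaneous one as first measured. The median difference was −0.10, or −0.24 with both depots on rlog. The mean passed for 16, all higher, against 4.29% of all genes. The lymph node libraries had the lowest matrix levels of the subcutaneous samples, −0.59 and −0.50, against 0.10 and −0.06 in the other GFP samples. Without them the subcutaneous median was 0.26, the median difference 0.22, and 0 of the list passed for the mean. With depots averaged per replicate number 0 passed as well.

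Sparc, a collagen-binding glycoprotein, had gonadal values of 100427, 61572, 94663 and 136506 with GFP and 151937, 187039, 148030.0 and 172064 with LCN2. Rlog values of Sparc in subcutaneous fat were 15.94, 15.65, 16.50 and 16.41 with GFP and 16.72, 17.23, 17.15 and 16.63 with LCN2. Its groups lay apart in both depots, with effects of 0.79 ± 0.27 and 0.80 ± 0.24, a difference of −0.01 ± 0.35 (−0.27 ± 0.30 with both depots on rlog). Col5a1, a chain of fibrillar collagen, also lay apart in both, with 0.82 ± 0.16 and 0.80 ± 0.23, a difference of 0.02 ± 0.30 (−0.25 ± 0.27 on rlog). Mmp3, a matrix-degrading protease, had effects of −0.70 ± 0.28 and 0.29 ± 0.22, and Dcn (decorin), a small proteoglycan, of −0.59 ± 0.22 and 0.09 ± 0.21, neither passing for the difference.

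Endothelial genes had the same sign in both depots for 20 of 20, against 64.5% of all genes, with medians of 0.30 and 0.34. The mean passed for 2 of the 20, near the 8.61% of all genes. They were Cdh5, the cadherin of endothelial junctions (0.58 ± 0.22 and 0.52 ± 0.18), and Tie1, a receptor kinase of vessels (0.52 ± 0.20 and 0.50 ± 0.16). Without the muscle libraries the gonadal median was 0.13, and without the lymph node libraries the subcutaneous median was 0.18. Neither reduced set left an endothelial gene passing for the mean, and averaging depots per replicate number left none.

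Cholesterol synthesis genes had the same sign for 20 of 24, against 64.5% of all genes, with medians of 0.35 and 0.07. The mean passed for 3 of the 24, against 8.61% of all genes. Hmgcs1, an early enzyme, had effects of 1.71 ± 0.30 and 1.04 ± 0.30, and their mean passed (adjusted p = 0.00895). Without the lymph node libraries the mean passed for 0 of the 24, and without the muscle libraries for 1. Averaging depots per replicate number left 0 of the 24 passing. Fatty acid synthesis genes had the same sign for 18 of 20, with medians of −0.15 and −0.31, and none passed. Without the muscle libraries the gonadal median of the synthesis genes was 0.10, with 11 above 0 and the same sign for 15, and without the lymph node libraries the subcutaneous median was −0.05.

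Clock genes are shown with their promoter letters because their directions were shared by the depots for 17 of 20, against 64.5% of all genes. BMAL1, the product of Arntl, binds the E-box CACGTG together with CLOCK, and ROR and REV-ERB receptors bind elements that hold TAGGTCA. Both motifs were searched on both strands in RefSeq promoters (GRCm38.p6, 250 bases before to 50 after the start), with the effects already known. CACGTG was in 7.15% of 32851 promoters and TAGGTCA in 2.61%. Of the 20 clock genes, 17 matched a promoter, 5 held the E-box and 2 the ROR element. Capitals mark the motif, and the Nfil3 window holds its reverse complement. Tef also held the E-box in another promoter (chr15:81811264-81811293), which is not shown.
Ciart, chr3:95882327-95882356, minus strand: tgcatctagagtCACGTGttgccggtaagc
Bhlhe41, chr6:145865556-145865585, minus strand: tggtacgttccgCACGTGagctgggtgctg
Cry1, chr10:85185097-85185126, minus strand: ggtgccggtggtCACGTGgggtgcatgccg
Per1, chr11:69098771-69098800, plus strand: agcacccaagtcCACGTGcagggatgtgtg
Tef, chr15:81802534-81802563, plus strand: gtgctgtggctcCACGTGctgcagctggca
Arntl, chr7:113207530-113207558, plus strand: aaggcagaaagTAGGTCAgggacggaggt
Nfil3, chr13:52981034-52981062, minus strand: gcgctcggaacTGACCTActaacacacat

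The 5 genes with the E-box all had effects below 0 in both depots. Over the whole list of 20, 14 gonadal and 13 subcutaneous effects were below 0. Ciart, a repressor of the clock, had effects of −1.11 ± 0.38 and −0.36 ± 0.18, and Cry1, another repressor, of −0.31 ± 0.22 and −0.44 ± 0.15. Tef, an output factor, had −0.48 ± 0.22 and −0.16 ± 0.16, Bhlhe41, a repressor, −0.61 ± 0.32 and −0.12 ± 0.19, and Per1, of the period family, −0.29 ± 0.34 and −0.10 ± 0.23. The genes with the ROR element had effects above 0 in both depots, 1.90 ± 0.49 and 0.45 ± 0.29 for Arntl and 0.77 ± 0.39 and 0.31 ± 0.16 for Nfil3, a repressor of output genes. A match describes letters and not a bound site.

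Arntl had gonadal values of 139, 34.6, 40.3 and 85.4 with GFP and 334, 169, 407 and 145 with LCN2. Rlog values of Arntl in subcutaneous fat were 7.68, 7.06, 6.52 and 6.68 with GFP and 7.71, 7.18, 7.90 and 6.96 with LCN2. The groups lay apart in gonadal fat and overlapped in subcutaneous fat, and the difference was 1.44 ± 0.62 (0.55 ± 0.42 with both depots on rlog). Dbp, an output factor that BMAL1 activates, had gonadal values of 1727, 3618, 4461 and 2823 with GFP and 915, 1509.7, 1305 and 2306 with LCN2, and effects of −1.06 ± 0.34 and −0.44 ± 0.21 with overlap in both depots, a difference of −0.62 ± 0.43 (−0.26 ± 0.33 on rlog). The mean passed for 6 of the 20, 3 higher and 3 lower, against 8.61% of all genes. These included Arntl, Clock and Noct above 0 and Nr1d2 and Dbp below 0. The mean passed for 0 of the 20 without the lymph node libraries, and for 0 when depots were averaged per replicate number. None passed for the difference, and Noct, of clock output, came nearest (0.84 ± 0.20, adjusted p = 0.322). The time of day at sampling is not given in the sources used here, and its part was not tested.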

How the data were processed

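Groups and replicate numbers come from the labels. The mRNA library kit was stranded, per the labels' protocols. HISAT2, DESeq2, GRCm38 and mm10 are named in the submitters' processing notes, while how reads were counted is not given in the sources used here. Gonadal values are a signal per gene that the authors deposited, namely counts divided by 1 size factor per sample, from which whole reads were recovered (100% of values within 1e-06). Subcutaneous values were deposited on the log2 scale, as rlog, with no depth.

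Because the tables had been normalized separately, only effects within each were compared. limma 3.58.1 (R 4.3.3, intensity trend) was fitted to the 4 groups over 19109 genes, with contrasts for the difference and the mean of the 2 effects, with Benjamini-Hochberg adjustment over all genes (threshold 0.05). SEs of single effects come from a fit per depot. Recovered gonadal reads were also tested with edgeR 4.0.16 and with DESeq2 1.42.0, which gave the gonadal rlog as well. The difference test was also run on simulated data in which all 16 samples varied independently. That run cannot show how the test behaves where same-numbered samples vary together. The members, gene lists and named genes (smallest p per direction and per list, or groups farthest apart, above a level limit) were chosen with earlier results of these data known. Genes outside that rule, Adh6b, Tesc, Egfl6, Il31ra, Gm38357, Heph, Bub1 and the other list examples among them, were chosen after their values were seen. Coordinates are those of GRCm38. Some genes are not reported here.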

Additional observations from a re-analysis of the deposited data

Results flagged for a closer look

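The test of the difference between depots drew attention to 8 genes. Gonadal minus subcutaneous effects on the log2 scale were 2.90 for Esrrg, 2.32 for Car12 and 1.25 for Gm38357. They were −2.03 for Tmem255a, −1.97 for Xpnpep2, −1.84 for Wnt2b, −1.66 for Il31ra and −1.53 for Kcnab1.

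A single sample lay far from the other 3 of its group in 3 of 104 groups checked, and chance alone gives about 1 in 20. Wnt2b had an rlog value of 5.89 in subcutaneous GFP replicate 4. Lzts1 had a normalized value of 225 in gonadal GFP replicate 4. Bnc1 had an rlog value of 4.68 in subcutaneous LCN2 replicate 1.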

How the results depend on the processing

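The count of genes whose effects differed, 8 as reported, was 1 with effects divided by their SE, 2 with gonadal reads as rlog (also with groups known, and divided by their SE), 29 with no filter, 13 with no intensity trend, 44 with sample quality weights, 1 without the lymph node libraries, 12 without the muscle libraries and 0 without either. Leaving out 1 sample gave 3 to 28. The mean effect, passed by 1645 genes, was passed by 26 without the lymph node libraries, 748 without the muscle libraries, 2 without either and 2998 with sample weights, and by 617 to 2448 with 1 sample left out. The gonadal count of 20 was 818 by DESeq2 and 7 by edgeR on recovered reads and 11 with the strict filter, and 1 to 66 with 1 sample left out. Genes apart in opposite directions, 5 as reported, were 13 without the muscle libraries and 13 without the lymph node libraries, and 5 to 22 with 1 sample left out. Genes apart in the same direction, 346, became 352 to 668. Some list medians changed sign without the muscle or the lymph node libraries, and several of these stand beside their lists in the report. The subcutaneous count was 0 in all 12 alternatives, and the cause of these shifts was not tested.

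Replicate numbers were not taken as pairing: same-numbered samples of 1 vector correlated at 0.03 to 0.62 across depots, and every LCN2 sample but 2 of 4 GFP samples correlated best with its own number. With a replicate block of vector and number across depots the difference passed for 1 gene, Xpnpep2 (adjusted p = 0.0231 by limma, against 0.051 for Tmem255a, 0.0803 for Car12 and 0.154 for Esrrg), with a block within each depot for 2, and the mean per number for 1. The gonadal count with a replicate block was 0.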

Other observations

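Ribosomal protein genes, a group chosen after its values were seen, were lower with LCN2 in both depots. Of 77 tested, 76 had a gonadal and 75 a subcutaneous effect below 0, with medians of −0.31 and −0.26 on the log2 scale. The median difference between depots was −0.04, and 0 of the 77 had an unadjusted p under 0.05 for it by limma. Groups lay apart in both depots for 27, against 1.81% of all genes in the same direction, and the mean of both effects passed for 70, against 8.61% of all genes, or for 0 when depots were averaged per replicate number. Without the 2 lymph node libraries the subcutaneous median was −0.13, with 76 below 0.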
